A study of Trichoderma reesei with 12 samples.

Results

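In Trichoderma reesei mycelium growing on cellulose, 97 of 10879 gene models were both abundant and nearly level across 2 strains and 2 light conditions. These gene models were chosen from the measured values. Each of their 4 group means was at least 200 normalised CPM, and the highest group mean was less than 1.2 times the lowest. Normalised CPM are read counts divided by a size factor per library and put on a per-million scale. Gene models within 50 numbers of an end of their letter series were left out, which removed 1 further candidate. The 97 made up 13.4% of the 726 gene models away from the series ends with all 4 group means at least 200. The other 629 are called the other abundant genes below. Because the choice rests on group means, differences between groups are given for the 97 as a description and carry no test.

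RNA was taken after 96 h at 28 °C from 4 groups of 3 libraries. The groups were the tmk3 deletion strain (QM6a-delta-ku80-delta-tmk3) in constant light, the same strain in constant darkness, the parent strain (QM6a-delta-ku80) in constant light, and the parent in constant darkness. The parent is given the genotype WT in the labels, but its strain name carries a ku80 deletion, as does the tmk3 deletion strain. Ku80 acts in DNA repair by non-homologous end joining, and fungi are often deleted for it because gene replacement then works better. The labels name a single deletion strain and no complemented strain, so the effect of tmk3 and that of other changes in that strain cannot be told apart.

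T. reesei is a soil fungus used in industry for its secreted cellulases. TMK3 is its counterpart of yeast Hog1, the mitogen-activated protein kinase of the osmotic stress response, and light reaches fungal gene expression through photoreceptors such as the BLR proteins and ENV1. Transcripts that keep their level between conditions serve as internal references in quantitative PCR, and the scaling of RNA-seq libraries assumes that most genes behave this way. In filamentous fungi actin, translation elongation factor and small GTPase genes are common choices for that role.

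Which of the 97 are such genes could not be read from these data. The table names gene models by a letter series, a number and W or C, and 0 of 10879 identifiers were found among 9116 reference entries (assembly GCF_000167675.1 v2.0), so no gene name, function or sequence is given here and the tmk3 transcript could not be checked. Read counts also depend on transcript length, which was not given, so levels of different gene models are not ranked as abundance.

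The 12 libraries held 11599300 to 17702344 counts. The smallest count of any of the 97 in any library was 1869, at which counting error alone gives a coefficient of variation (CV) of 2.31%. Replicate 2 of the dark parent stood apart. Its total count was 1.37 times what its size factor gave, against 0.905 to 1.08 times in the other 11 libraries. The main values that rest on it are also given without it.

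The mean level of the 97 over the 4 groups ran from 214.5 to 8917 normalised CPM with a median of 352. The other abundant genes had a median of 447. Of the 97, 74 lay below 500, 15 between 500 and 1000, and 8 above 1000. The median ratio of highest to lowest group mean was 1.14 among the 97 and 1.55 among the other abundant genes. Across all 726, a ratio of at least 2 was found for 153 (21.1%), and the highest was 15.5. At the threshold, TrB0694W (1.196) and TrA0185W (1.1997) lay just inside, and TrB0624C (1.2005) and TrD0724C (1.2015) just outside. Without replicate 2 of the dark parent the ratio was 1.1998 for TrB0694W and 1.43 for TrA0185W. In that setting edgeR called TrA0185W for light in the parent (log2 fold change 0.52, edgeR adjusted p = 0.00432). Its ratio was below 1.2 in 7 of the 16 other settings tried, so its place among the 97 did not rest on that library alone. It was 1.21 with TMM and 1.34 with group medians.

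**Figure D1:**
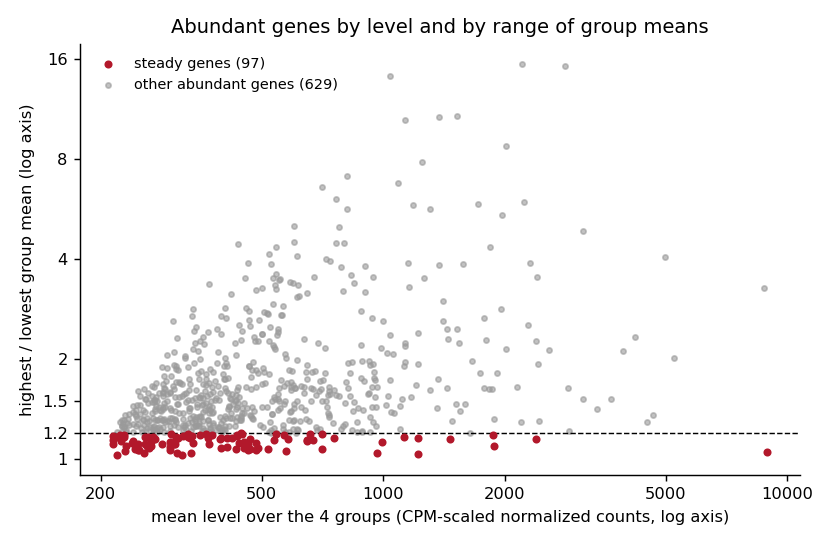
Mean level over the 4 groups (normalised CPM, log axis) against the ratio of the highest to the lowest group mean (log axis) for 97 steady genes (red) and 629 other abundant genes (grey). Each point is a gene model and the dashed line is the ratio of 1.2 that chose the steady genes, which occur from 214.5 to 8917 normalised CPM.

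TrC1333W was the member with the highest counts. It had 8307, 9025 and 8773 normalised CPM in the deletion strain in light, 9192, 8974 and 8352 in the deletion strain in darkness, 9454, 8867 and 9210 in the parent in light, and 9549, 8928 and 8374 in the parent in darkness. All 4 groups overlapped. Its group means were 8702 ± 364, 8839 ± 436, 9177 ± 295 and 8951 ± 587 in the same order (SD, n = 3 each). TrC1333W alone supplied 16.4% of the counts of the 97.

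The next by counts were TrA1169W, TrA1422W, TrG0670C and TrA0751C, with means over the groups of 2392, 1881, 1873 and 1460 normalised CPM. TrG0670C had 1785, 1884 and 1899 normalised CPM in the deletion strain in light, 1761, 1967 and 1720 in the deletion strain in darkness, 1671, 1846 and 1734 in the parent in light, and 2028, 2060 and 2127 in the parent in darkness. The 3 dark parent libraries were above the other 9, although its group means stayed within a ratio of 1.18. TrA0751C had 1427, 1365 and 1409 normalised CPM in the deletion strain in light, 1392, 1518 and 1344 in the deletion strain in darkness, 1385, 1348 and 1499 in the parent in light, and 1891, 1058 and 1884 in the parent in darkness. Here the dark parent held both the highest levels and the lowest, and the ratio of its group means was 1.1505. Without replicate 2 of the dark parent, the ratio of TrA0751C was 1.35. In that setting edgeR called TrA0751C for the deletion in darkness (adjusted p = 0.00489) and for light in the parent (adjusted p = 0.00273). It was also called for the interaction (edgeR adjusted p = 0.0466). Its ratio was below 1.2 in 14 of the 16 other settings tried, and was 1.36 with group medians. TrA1169W had its lowest level of the 12 in replicate 2 of the dark parent, at 1713 normalised CPM against 2285 to 2573 in the other 11.

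Similar group means did not always mean similar libraries. TrA0382C had the lowest ratio, 1.03, and its level ran from 285 to 382 normalised CPM over the 12 libraries. TrF1157C, with a ratio of 1.03 too, had 228.1, 228.3 and 213.5 normalised CPM in the deletion strain in light, 208, 234 and 212 in the deletion strain in darkness, 229, 223 and 205 in the parent in light, and 209, 217 and 223 in the parent in darkness. Its CV over all 12 libraries was 4.42%. TrE0469C, TrA0315W and TrC0966W followed in the ratio of group means, each at 1.04, with CVs over the 12 libraries of 8.499%, 6.88% and 9.24%.

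By CV over all 12 libraries TrC0538W was lowest at 4.09%. It had 305.8, 307.0 and 304.5 normalised CPM in the deletion strain in light, 288, 311 and 289 in the deletion strain in darkness, 312, 301 and 282 in the parent in light, and 275, 296 and 289 in the parent in darkness. The groups overlapped except that the deletion strain in light lay above the dark parent. TrF1157C, TrE0776W (4.58%), TrC1333W (4.63%) and TrD1199W (4.63%) came next. The highest library of a member was between 1.14 and 2.13 times its lowest, with a median of 1.35, and 82 of the 97 stayed below 1.5. Without replicate 2 of the dark parent 93 of 97 did, with a median of 1.28 and a maximum of 1.72. Among the other abundant genes the median over 12 libraries was 2.03.

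The members with the widest replicate spread were TrF0103C, TrE0924W and TrB1085W, with median CVs within groups of 15.1%, 14.3% and 13.7%. TrF0103C had 282, 287 and 314 normalised CPM in the deletion strain in light, 278, 329 and 303 in the deletion strain in darkness, 413, 265 and 334 in the parent in light, and 288, 510 and 239 in the parent in darkness. Its dark parent replicates differed more than its groups did.

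The study compared the strains in each light condition and the light conditions in each strain. edgeR's quasi-likelihood test was run over all 8998 gene models that passed the count filter, with calls at a Benjamini-Hochberg adjusted p below 0.05. For the deletion in darkness it called 0 of the 97, against 40.7% of all gene models tested. At an unadjusted p below 0.05 there were 0, against 49.7%, and DESeq2 called 2, against 44.8%. For the deletion in light edgeR called 0, against 20.5%, with 2 at an unadjusted p below 0.05, against 32.5%, and 0 by DESeq2, against 25.4%. The fitted log2 fold changes of the 97 lay between -0.25 and 0.22 in darkness and between -0.21 and 0.27 in light.

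For light in the deletion strain edgeR called 0 of the 97, against 38.7% of all, with 5 at an unadjusted p below 0.05, against 47.2%, and 2 by DESeq2, against 42.6%. For light in the parent edgeR called 1, against 47.5%, with 5 at an unadjusted p below 0.05, against 54.6%, and 6 by DESeq2, against 51.1%. For the interaction, the difference of the light effects between the strains, edgeR called 0, against 14.1%, with 0 at an unadjusted p below 0.05, against 29.1%, and 0 by DESeq2, against 20.2%. With the groups of a contrast fitted alone, edgeR called 0 for the deletion in darkness, against 24.8%, 2 for the deletion in light, against 36%, 3 for light in the deletion strain, against 53.7%, and 0 for light in the parent, against 34.6%. The rule used these contrasts, so nothing is read from the counts. Named after their values were seen, the 2 that DESeq2 called for the deletion in darkness were TrD0441W, higher in the deletion strain, and TrG0670C, lower in it.

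The gene model called was TrG0550W. It had 260, 240 and 233 normalised CPM in the parent in light, against 204, 205 and 212 in the parent in darkness. In the deletion strain it had 232, 239 and 236 in light, against 196, 226 and 198 in darkness. Light libraries were above dark ones in both strains with no overlap. In the parent the log2 fold change was 0.25 (SE 0.09, edgeR adjusted p = 0.0393), and in the deletion strain 0.21 (SE 0.09, edgeR adjusted p = 0.094). The adjusted p in the parent ran from 0.0324 to 0.118 when single libraries were left out. The call was lost without any 1 of the 3 light libraries of the deletion strain, any 1 of the 3 light libraries of the parent, or replicate 1 or 2 of the dark parent.

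The libraries of the groups overlapped for most of the 97, and the exceptions are given as a description since the rule used these values. For light in the deletion strain, the 3 light and the 3 dark libraries did not overlap for 24 of the 97, 10 of them higher in light, against 63.1% of all gene models tested. For the deletion in light this held for 15, 3 of them higher in the deletion strain, against 49.9% of all. For light in the parent it held for 12, 6 of them higher in light, against 51.6% of all, and for the deletion in darkness for 6, 3 of them higher in the deletion strain, against 46.6% of all. TrA1422W moved in opposite ways: it had 1759, 1789 and 1800 normalised CPM in the deletion strain in light, against 1825, 2166 and 1893 in that strain in darkness, and 1980, 1960 and 1882 in the parent in light, against 1823, 1851 and 1839 in the parent in darkness.

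The spread between replicates was not what chose the members, although a noisy gene model is less likely to show 4 similar means. Within groups the median CV of the 97 was 2.69% in the deletion strain in light, 7.79% in the deletion strain in darkness, 6.73% in the parent in light and 11.1% in the parent in darkness. The other abundant genes had 4.10%, 9.03%, 8.91% and 15.7% in the same groups. For 63 of the 97 the dark parent was the most variable group, a share of 64.9% against 64.7% of the other abundant genes. Without its replicate 2 the dark parent was the most variable group for 15 of the 97 (15.5%) and for 30.8% of the other abundant genes, and it had a median CV of 3.43% among the 97 and 7.82% among the other abundant genes, each over 2 libraries against 3 in the other groups. In the deletion strain in light, 15 of the 97 (15.5%) had a CV at or below counting error, against 0 to 2 in the other groups. Of the 629 other abundant genes, 58 (9.22%) did in that group. In the deletion strain in darkness, the parent in light and the parent in darkness 14, 7 and 1 of them did.

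**Figure D2:**
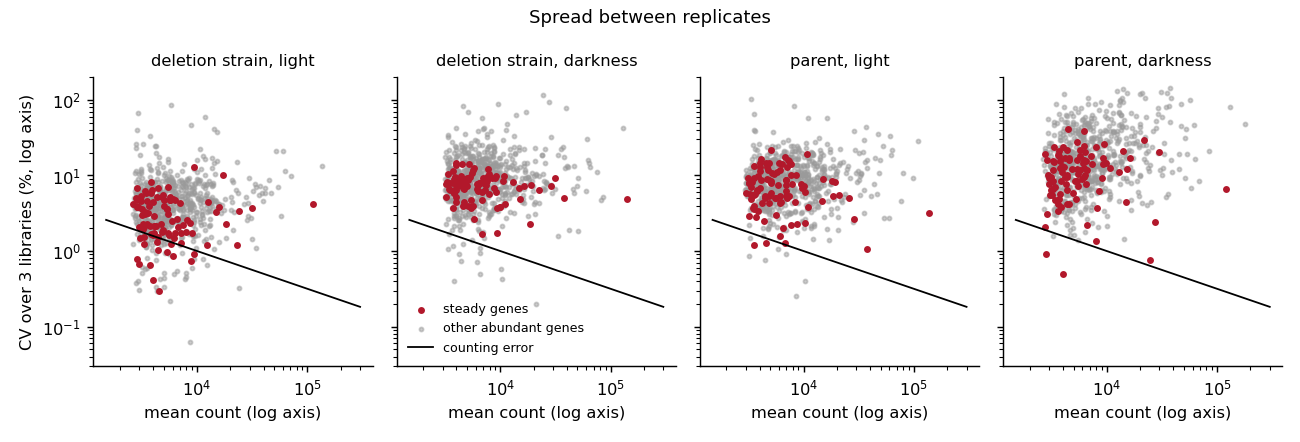
Coefficient of variation over the 3 libraries of a group (log axis, percent) against the mean count of the gene model in that group (log axis), for 97 steady genes (red) and 629 other abundant genes (grey), with 1 panel per group; the black line is counting error. Points lie lowest in the deletion strain in light, where the steady genes have a median of 2.69%, and highest in the parent in darkness, where they have 11.1%.

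The smaller spread of the 97 was found at each level. Between 200 and 400 normalised CPM the median CV within groups was 6.29% for 56 members and 7.70% for 260 other abundant genes. Between 400 and 800 it was 7.33% for 31 and 8.96% for 232, and above 800 it was 5.79% for 10 and 9.21% for 137.

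To see whether steadiness carried over to libraries that did not choose the genes, the choice was repeated from 2 replicates per group and the ratio of the highest to the lowest group was read in the replicate left out. Chosen without replicate 1, 105 gene models had a median ratio of 1.24 in that replicate, against 1.56 for the abundant gene models not chosen. Chosen without replicate 3, 90 had 1.22, against 1.54. Chosen without replicate 2, 94 had 1.36, against 1.70, and in 73 of the 94 the dark parent library was the highest or the lowest of the 4. The dark deletion library was so in 61 of the 94. In replicate 1 the dark parent library was the highest or the lowest in 59 of 105, and the light parent library in 61. In replicate 3 the dark parent library was so in 58 of 90, and the dark deletion library in 60. Over the 3 groups other than the dark parent, the median of the 94 in replicate 2 was 1.19. All abundant gene models, the chosen ones included, had 1.36 there. A ratio over 3 groups cannot exceed the ratio over all 4. With the dark parent left out in the same way, those chosen without replicates 1 and 3 had 1.17 and 1.13, given without a comparison. With the light parent left out instead, those chosen without replicate 1 had 1.16. With the dark deletion group left out instead, those chosen without replicate 3 had 1.12. The left-out ratio compares single libraries, so it is wider than a ratio of means, which had a median of 1.14 in each of these choices. It was below 1.2 for 41.9%, 19.1% and 44.4% of the gene models chosen without replicates 1, 2 and 3, and for 5.49%, 6.99% and 8.49% of those not chosen.

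**Figure D3:**
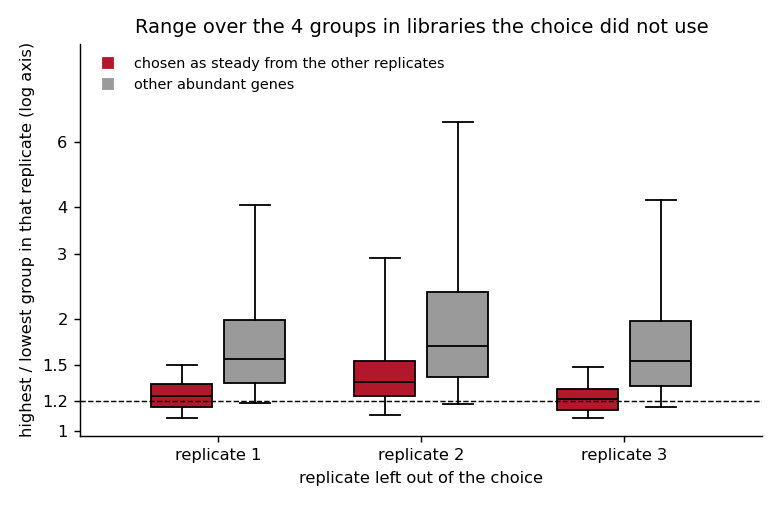
Ratio of the highest to the lowest of the 4 groups in the replicate left out of the choice (log axis), for gene models chosen as steady from the other replicates (red) and abundant gene models not chosen (grey). Boxes span the quartiles with the median as a line, whiskers span the 5th to the 95th percentile, and the dashed line is 1.2; the red medians are 1.24, 1.36 and 1.22 for replicates 1, 2 and 3.

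Of the 97, 37 were chosen in all 3 of these rounds, 42 in 2, 14 in 1 and 4 in 0. Each round used 2 of the 3 replicates that chose the 97, so these counts are tied to that choice. TrC1333W, TrC0538W, TrF1157C, TrE0776W and TrD1199W, the 5 with the lowest CV over the 12 libraries, were among the 37. Both properties come from the same libraries, so the one does not support the other. TrF0103C was among the 4.

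Within groups, single libraries shifted many of the 97 together. In the deletion strain in darkness, 82 of the 97 lay above their group's mean log2 level in replicate 2, with a median deviation of 0.10 on the log2 scale, and 14 did in replicate 3, with a median deviation of -0.07. Of the 629 other abundant genes, 349 (55.5%) and 289 (45.9%) lay above the mean in these libraries, with medians of 0.02 and -0.02. In the parent in light, 83 of the 97 lay above the mean in replicate 1 and 25 in replicate 2, with medians of 0.07 and -0.08. The other abundant genes had medians of 0.04 and -0.07 there. In the deletion strain in light the medians for the 97 stayed between -0.03 and 0.01. In replicate 2 of the dark parent the middle 50% of the 97 spanned 0.32 on the log2 scale, against 0.04 to 0.18 in the other libraries. The other abundant genes spanned 0.47 there, against 0.06 to 0.33 in the other libraries. With TMM scaling the 2 dark deletion libraries again had 82 and 14 of the 97 above the mean. Replicates 1 and 2 of the parent in light then had 73 and 30. The median of the 97 in replicate 2 of the dark parent moved from -0.06 to -0.10.

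**Figure D4:**
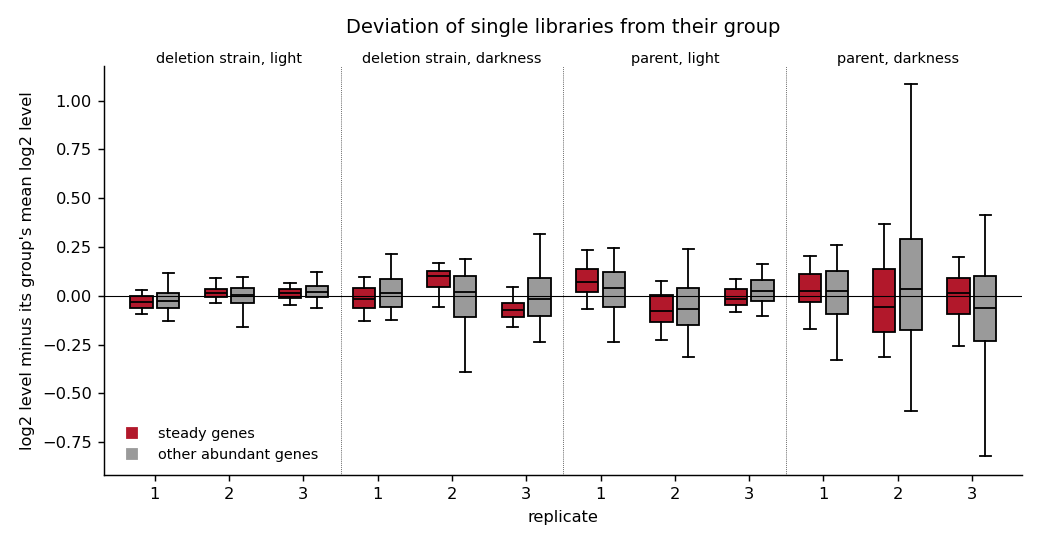
Log2 level minus the mean log2 level of the same gene model in its group, by library, for 97 steady genes (red) and 629 other abundant genes (grey). Boxes span the quartiles with the median as a line and whiskers span the 5th to the 95th percentile; the red boxes of replicates 2 and 3 of the deletion strain in darkness lie on opposite sides of 0, with medians of 0.10 and -0.07.

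The 97 were chosen after division by the size factors, so a scale taken from them is tied to those factors by the rule. It was 0.940 to 1.06 times the size factor of a library computed from all 8428 gene models above 0 in every library. TMM gave 0.987 to 1.04 times and the total count 0.905 to 1.37 times. As a share of all counts, the 97 took 5.81% ± 0.0443 in the deletion strain in light, 5.86% ± 0.390 in the deletion strain in darkness, 5.47% ± 0.106 in the parent in light and 4.86% ± 0.784 in the parent in darkness (SD, n = 3 each). In replicate 2 of the dark parent the share was 3.96%, against 5.27% to 6.28% in the other 11 libraries. Without it the dark parent had 5.32% ± 0.0707 (SD, n = 2).

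Which gene models met the rule depended on how libraries were scaled. With TMM, 106 gene models met the rule and 94 of them were among the 97. With the total count, 94 met it and 30 of them were among the 97. On that scale 90 of the 97 had their lowest group mean in the dark parent, and their median ratio was 1.24. Without replicate 2 of the dark parent, 121 gene models met the rule by total count and 51 of them were among the 97. Then 55 of the 97 had their lowest group mean in the dark parent and their median ratio was 1.19. The 30 that met the rule under all 3 scalings included TrA0751C, TrG0670C and TrF0103C. TrC1333W, with a ratio of 1.05 in normalised CPM, had 1.22 by total count and 1.12 without that library. Of the 30, 11 were also chosen in all 3 rounds with a replicate left out. Each round used 2 of the 3 replicates that chose the 97, so this gives no independent support for the 11. These 11, singled out after their values were seen, are TrA0196C, TrA0270C, TrA1037W, TrB0839W, TrB1769C, TrC0449W, TrC1075C, TrC1089W, TrD0151W, TrE0373C and TrG0566W. Their ratios in normalised CPM ran from 1.05 to 1.153 and their CVs over the 12 libraries from 5.25% to 11.1%. Among them, DESeq2 called TrC0449W lower in light in both strains. The log2 fold change was -0.16 in the parent (DESeq2 adjusted p = 0.036) and -0.17 in the deletion strain (DESeq2 adjusted p = 0.0291).

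The identifiers give each gene model a place along its letter series, read here as its order along a chromosome, which is an assumption from their form. The 97 lay in all 7 series, from 17 of 154 abundant gene models in series A to 13 of 77 in series D. Members stood next to each other in 2 cases, TrD1198C with TrD1199W and TrE0372W with TrE0373C. W was the letter of 53 of the 97 (54.6%), against 48.3% of the other abundant genes. Among the 194 pairs a member makes with the next identifier on either side, the letters were the same in 64 (33.0%), against 42.8% of the pairs of other abundant genes and 41.8% of all neighbouring pairs in the table.

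Levels of the neighbours played no part in choosing the members. Of 171 tested non-members directly next to one of the 97, 54 (31.6%) had a ratio of highest to lowest group mean of at least 2, against 40.2% of 1083 next to the other abundant genes and 46.1% of those next to all other tested gene models. The share was 33.1% at a distance of 2 and 44.9% at a distance of 6, where it was 46.0% around the other abundant genes. Without replicate 2 of the dark parent the shares next to members and next to other abundant genes were 27.1% and 36.02%. With members and ratios from total counts the order turned, with 43.1% and 39.3%. The difference was not tested, since neighbours share libraries and are not replicates. Whether counts were assigned by strand is not given in the sources used here, so reads shared by overlapping neighbours cannot be told apart.

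**Figure D5:**
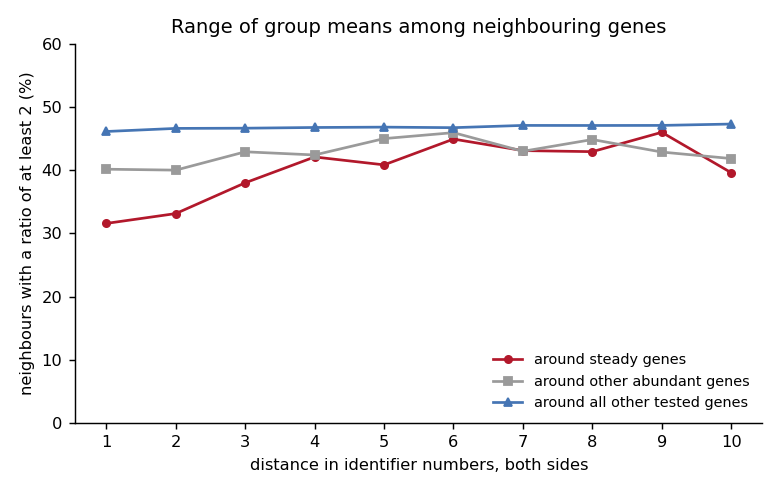
Share of tested neighbours with a highest-to-lowest ratio of group means of at least 2 (percent, members left out), by distance in identifier numbers on both sides, around 97 steady genes (red), 629 other abundant genes (grey) and all other tested gene models (blue). Next to the steady genes the share is 31.6%, against 40.2% and 46.1%, and by a distance of 6 the red and grey shares are 44.9% and 46.0%; with total-count scaling the order of red and grey next to the genes turns.

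Steady genes also bordered gene models with large differences. TrD0286C had group means of 547 ± 6.93 normalised CPM in the deletion strain in light, 561 ± 38.2 in the deletion strain in darkness, 585 ± 13.2 in the parent in light and 631 ± 39.5 in the parent in darkness (SD, n = 3 each). The identifier before it, TrD0285W, had 41.8 ± 1.36, 32.6 ± 8.40, 0.706 ± 0.182 and 0.254 ± 0.184 in the same order. TrA0315W had 317 ± 6.83, 306 ± 26.5, 308 ± 3.97 and 303 ± 39.6 normalised CPM in these groups, and the identifier before it, TrA0314W, had 61.2 ± 1.92, 163 ± 7.49, 13.1 ± 1.87 and 6.66 ± 1.45. TrD0286C and both neighbours were picked after their values were seen.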

How the data were processed

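The deposited table holds read counts per gene model, whole numbers with no normalization by the authors. The submitters' processing notes list HISAT2 2.2.1. The kit was stranded, with rRNA depletion, per the labels' protocols. Which counter, strand setting and filters were used is not given in the sources used here. Columns were assigned to samples through the labels, with 0 columns unused. The labels do not tie replicates to separate cultures, and the p-values therefore reflect the spread among these samples alone, possibly a technical one. Replicates of a group all differed beyond sampling noise, with chi-square values of 11.2 to 413 per degree of freedom.

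The members and lists were chosen with earlier results of these data known. Size factors are medians of ratios over 8428 gene models above 0 in all 12 libraries. Counts were divided by them and by the mean library total on a per-million scale. Gene models named are the 5 members each with the highest level, lowest ratio and lowest CV, the 3 with the highest median CV within groups, those 2 on each side of the threshold, and called members. Others are marked where they appear. The reference genes planned for naming could not be matched.

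All 12 libraries were fitted with edgeR 4.0.16 in R 4.3.3 (filterByExpr, 8998 gene models, TMM, 4 group means). Standard errors are |log2 fold change| over the root of F. DESeq2 1.42.0 and the settings in the closing section were alternatives. Replicate numbers were not used as a block. Left-out ratios used size factors from all libraries. Tables and figures used Python 3.11.15, pandas 2.3.3 and matplotlib 3.10.9.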

Additional observations from a re-analysis of the deposited data

Results flagged for a closer look

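TrA1422W is the member whose libraries moved in opposite ways with light in the 2 strains without overlap, lower in the light libraries of the deletion strain and higher in those of the parent. Its interaction was -0.21 on the log2 scale (SE 0.14, edgeR adjusted p = 0.341). The rule that chose the 97 kept the group means of TrA1422W close, which limited this value. TrA1422W was also flagged from the same libraries, so the test cannot decide whether the strains differ. With the deletion, 0 of the 97 moved in opposite ways in darkness and in light without overlap. These counts of the 97 were not made over all tested gene models, so nothing is read from them.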

How the results depend on the processing

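The number of members was 239 with a floor of 100 normalised CPM, 35 with a floor of 400, 57 with the stricter ratio tried and 208 with a ratio below 1.3. It came to 98 with the series ends kept and 107 with group medians, of which 79 were among the 97. With 1 library left out it ranged from 86 (without replicate 2 of the light parent) to 123, highest without replicate 2 of the dark parent, and 79 to 95 of the 97 were chosen again. The median CV within groups, 6.36%, ranged from 5.32% to 7.05% in these fits. The median ratio in the left-out replicate, 1.27 as a mean over the 3 rounds, was 1.36 with total counts.

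Counts of members called under other settings are given with the share of all tested gene models called under the same setting. For the deletion in darkness there were 11 with total counts (39.1% of all), 2 by DESeq2 (44.8%) and 0 to 3 with 1 library left out, with 3 without replicate 2 (41.8%) and 1 without replicate 3 (43.7%) of the dark parent. For the deletion in light there were 2 with these groups fitted alone (36%) and 0 to 0 with 1 library left out (14.0% to 30.9%). For light in the parent there were 4 with total counts (45.3%), 6 by DESeq2 (51.1%) and 0 to 6 with 1 library left out, with 6 without replicate 2 of the dark parent (50.4%) and 2 when replicate 2 of the deletion strain in darkness was dropped (46.2%). There were 0 without the count filter (41.5%), with the 2 groups fitted alone (34.6%) or at an adjusted p below 0.01. For light in the deletion strain there were 3 with the groups fitted alone (53.7%), 2 by DESeq2 (42.6%) and 0 to 2 with 1 library left out, with 2 without replicate 2 of the dark parent (48.9%) and 1 when replicate 3 of the deletion strain in darkness was dropped (33.0%). For the interaction there were 0 to 2, with 2 without replicate 2 of the dark parent (21.5%). The cause of these changes was not tested.

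Same-numbered replicates correlated in their deviations at -0.43 to 0.18 (18 pairs, 4 above 0.1), and 0 of 12 libraries correlated best with their own number. With the replicate block 0 members were called for light in the parent (42.9% of all), where TrG0550W had an adjusted p of 0.0763, and the block changed none of the other 4 counts of members. Settings added after seeing the data were the other per-million scale, other scalings for the letters W and C, for the neighbours and for the deviation of single libraries, and the neighbours, total-count choice, most variable group and share of counts without replicate 2 of the dark parent. The floor of the rule keeps counts high, and no setting with fewer reads was run.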
